A study of Caenorhabditis elegans with 6 samples.

Results

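Ceramide and glucosylceramide synthesis in Caenorhabditis elegans was followed through the messenger RNAs of 10 enzyme genes. They are 3 serine palmitoyltransferase genes (sptl-1, sptl-2, sptl-3), 3 ceramide synthase genes (hyl-1, hyl-2, lagr-1), the sphingolipid desaturase gene ttm-5 and 3 ceramide glucosyltransferase genes (cgt-1, cgt-2, cgt-3). They were taken by name from the 46245 genes listed in the deposited tables, and each name matched 1 row. Whole worms grown at 20 °C to the late L4 stage, the end of larval life, were compared between 2 strains with 3 libraries each. The strain DCL33 had the alleles eat-2(ad465) plus acs-20(tm3232) and is called the reference strain here. The strain DCL289 carried ptr-8(mkc18) together with the same eat-2(ad465) and acs-20(tm3232) alleles and is called the ptr-8 strain. Neither strain is wild type, so every value below comes from animals that carry eat-2 and acs-20 mutations. The comparison asked how transcript levels differ when ptr-8, whose product is a membrane protein related to Patched, is mutated in that background. Each strain is 1 line, and the labels do not say whether replicates came from separate cultures, so p-values reflect the scatter of these libraries alone, part of which may be technical.

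Sphingolipid synthesis starts in the endoplasmic reticulum. Serine palmitoyltransferase joins serine to a fatty acyl-CoA to start the sphingoid base, which in this worm is made from a branched-chain acyl group. Ceramide synthases then attach a fatty acid through an amide bond, a desaturase places a double bond in the base, and ceramide glucosyltransferases add glucose to give glucosylceramide. In C. elegans, glucosylceramide that carries the branched-chain base is required for larval growth, and its role has been traced to the intestine. eat-2 encodes a subunit of a pharyngeal acetylcholine receptor, and its mutants eat slowly. The product of acs-20, a fatty acid transport protein, couples fatty acids to coenzyme A.

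Values are FPKM, the fragments counted on a transcript per kilobase of its length, relative to all fragments mapped in that library, and were divided here by a further factor per library (0.869 to 1.33). Because FPKM is per length, levels can be set beside each other between genes. Depth was not stated, and the deposited FPKM intervals put it at 0.579 to 1.51 times that of reference strain replicate 1. An FPKM of 1 was reached by 14883 to 15461 genes, depending on the library. Correlations of log2 levels across genes were 0.961 to 0.981 between libraries of the same strain and 0.939 to 0.969 between strains. ptr-8 itself (WBGene00004222) was at 21.8 ± 3.23 scaled FPKM in the reference strain and 5.12 ± 0.614 in the ptr-8 strain (SD, n = 3 each, log2 fold change -1.89, limma adjusted p = 0.00542). Which part of the gene mkc18 alters is not given in the sources used here, and this level does not check the allele. With the scaling used here, summed markers of adult stage, oocytes and germ line stood apart between strains, and those of sperm did not. The summed level of 3 adult-stage collagen genes was 112 to 718 scaled FPKM in the reference strain and 832 to 1195 in the ptr-8 strain, and that of 5 oocyte genes was 90.5 to 175 and 215 to 317. These 8 genes did not pass (limma adjusted p 0.113 to 0.271), and 6 of them had an unadjusted p below 0.05. Singly, col-19 and the 5 oocyte genes did not overlap between strains. For col-62 and col-7, reference strain replicate 1 (117 and 178) was above ptr-8 strain replicate 2 (105 and 136). The summed level of 5 germ line markers was 620 to 748 and 809 to 895 scaled FPKM. On FPKM as deposited these germ line sums overlapped. None of the 5 passed in limma, and htp-3 overlapped singly. The summed level of 6 sperm markers overlapped, at 711 to 1200 and 849 to 1343. Singly, 5 of these 6 had a positive log2 fold change, and the median was 0.40, beside 0.21 for the germ line markers. The summed levels of 6 intestinal markers (5053 to 7487 and 4404 to 6480) and of 5 epidermal markers (243 to 474 and 256 to 366) overlapped between strains. Most of the intestinal sum was mtl-2 (4954 ± 1098 and 3959 ± 1182). Singly, vha-6 was lower and ges-1 higher in the ptr-8 strain without overlap, and the other 4 intestinal markers overlapped. Every listed marker of intestine, epidermis, muscle, neurons and germ cells was above 0 in every library. The part of stage or of cell type proportions in the results below was not tested, and in whole worms fewer cells of a type and less RNA per cell cannot be told apart.

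In the ptr-8 strain, hyl-1, ttm-5 and cgt-1 fell, to 62.7%, 58.0% and 38.8% of the reference strain mean. The other 7 synthesis genes did not pass, and none was called higher. The test was limma on log2(scaled FPKM + 1) over 15205 genes, with Benjamini-Hochberg adjustment and a threshold of 0.05. Of all genes tested, 2.29% were called, 1.94% as lower and 0.349% as higher. Besides these 3, sptl-1 and sptl-2 lay lower in all ptr-8 strain libraries than in any reference strain library, so that 5 of the 10 genes had libraries that did not overlap with the ptr-8 strain below. That held for 14.1% of all genes tested, and the opposite, held by 0 of the 10, for 13.6%. At an unadjusted p below 0.05, 5 of the 10 were lower and 0 higher, against 11.8% and 8.9% of all genes. With limma voom on implied fragments, a count-like value drawn from the FPKM intervals, 0 of the 10 were called in either direction, and 4 were lower and 0 higher at an unadjusted p below 0.05. Log2 fold changes were negative for 8 of the 10 genes and for 49.1% of all genes tested. The median log2 fold change of the 10 genes was -0.38, beside 0.0061 over all genes tested. The 10 genes were listed with earlier results of these data known, so these shares describe the list and test nothing about it.

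**Figure D1:**
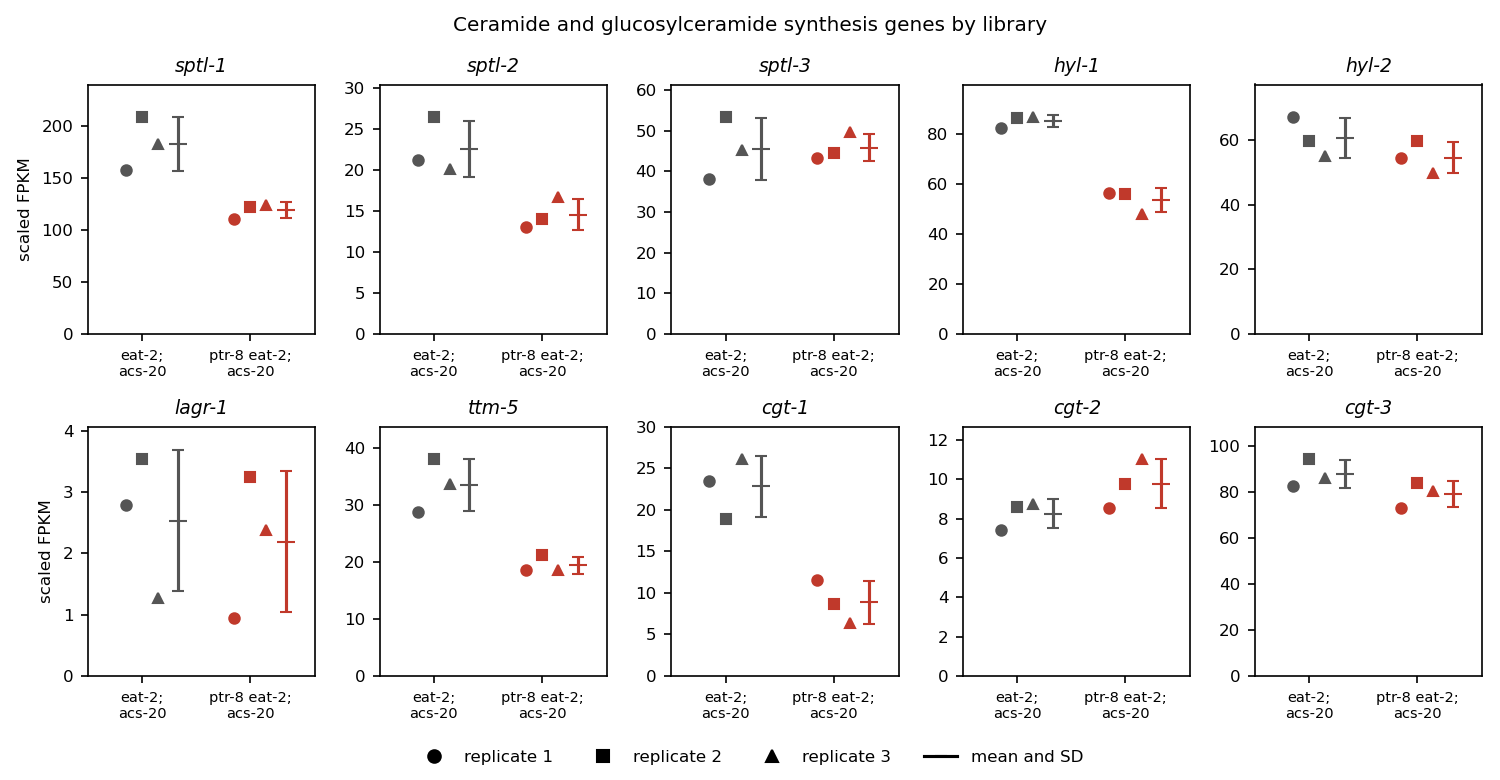
Scaled FPKM (vertical axes, each from 0) of the 10 synthesis genes in every library of both strains, with symbols for replicates and a bar for mean and SD (n = 3). The ptr-8 strain lies wholly below the reference strain for sptl-1, sptl-2, hyl-1, ttm-5 and cgt-1, and the strains overlap for the other 5 genes.

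The serine palmitoyltransferase genes divided into 2 that were lower and 1 that was level, none of them called. sptl-1 (WBGene00016020, chromosome II, 51072 to 57607, plus strand) encodes the worm counterpart of the LCB1 subunit, which every form of the enzyme needs. Its scaled FPKM was 157, 208 and 182 in reference strain replicates 1, 2 and 3, while ptr-8 strain replicates stood at 110.2, 122 and 124. The highest ptr-8 strain library was thus below the lowest reference strain library. The mean went from 183 ± 25.6 to 118.8 ± 7.50 (SD, n = 3 each, log2 fold change -0.61, SE 0.13, 95% interval -0.91 to -0.30), and limma did not call it (adjusted p = 0.0729). Without reference strain replicate 1, which was its lowest library in that strain, the adjusted p was 0.0413, and it ran from 0.147 to 0.234 without any other 1 library. The trehalase-family gene tre-5 lies on the opposite strand within the sptl-1 locus, shares no exon base with it and was low (2.34 ± 0.470 and 2.42 ± 0.591 scaled FPKM).

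sptl-2 and sptl-3 encode the other subunit type, the counterpart of LCB2, which in yeast and mammals carries the catalytic lysine. sptl-2 (WBGene00018398, chromosome V, 8017947 to 8021717, plus strand) was at 21.1, 26.4 and 20.1 scaled FPKM in the reference strain and 13.0, 14.0 and 16.7 in the ptr-8 strain. No libraries overlapped between strains, but sptl-2 did not pass (log2 fold change -0.60, SE 0.15, interval -0.95 to -0.24, limma adjusted p = 0.105). sptl-3 (WBGene00011932, chromosome V, 13893325 to 13896417, plus strand) was at 38.1, 53.4 and 45.4 in the reference strain and 43.3, 44.5 and 49.6 in the ptr-8 strain. All ptr-8 strain libraries of sptl-3 fell within the range of the reference strain, with means of 45.6 ± 7.62 and 45.8 ± 3.35. Its 95% interval ran from -0.32 to 0.36 on the log2 scale (limma adjusted p = 0.958), so changes within that interval remained compatible with these libraries.

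Ratios taken inside a library do not depend on how libraries are scaled to each other. The ratio of sptl-1 to sptl-3 was 4.12, 3.90 and 4.01 in the reference strain and 2.55, 2.75 and 2.50 in the ptr-8 strain, with a narrow spread in each (SD 0.108 and 0.132, n = 3). The ratio of sptl-2 to sptl-3 went from 0.497 ± 0.0559 to 0.317 ± 0.0178 and did not overlap either. By contrast, the ratio of sptl-1 to sptl-2 overlapped between strains, at 8.13 ± 0.844 and 8.22 ± 0.679. sptl-3 accordingly made up 18.2% ± 0.473 of the FPKM of the 3 genes in the reference strain and 25.6% ± 0.825 in the ptr-8 strain. These ratios are descriptions without a test, since 3 libraries against 3 cannot give an exact two-sided permutation p below 0.1. Where a ratio pairs a gene that was lower with one that was not, it restates the difference of that gene.

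Among the ceramide synthase genes only hyl-1 passed. hyl-1 (WBGene00002043, chromosome IV, 8539123 to 8544379, plus strand) encodes the worm ceramide synthase that favours longer acyl chains than hyl-2 does. Its scaled FPKM was 82.6, 86.7 and 87.0 in the reference strain and 56.5, 56.2 and 48.0 in the ptr-8 strain. Both strains had little spread, and the groups were far apart. The mean fell from 85.4 ± 2.47 to 53.6 ± 4.79 (SD, n = 3 each, log2 fold change -0.67, SE 0.095, interval -0.90 to -0.44, limma adjusted p = 0.0292). The call was lost on FPKM as deposited (adjusted p = 0.468) and without any 1 library other than reference strain replicate 1 (adjusted p 0.0652 to 0.137). The log2 fold change computed from implied fragments was smaller in size, at -0.36 (adjusted p = 0.503). For hyl-1 these fragments were not in proportion to FPKM. They were 1244 at a deposited FPKM of 87.1 in reference strain replicate 1, and 1203 at 54.8 in ptr-8 strain replicate 1. The depth of the latter library was put at 1.10 times that of the former. The part of this in the smaller value was not tested.

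hyl-2 (WBGene00002044, chromosome X, 4696785 to 4699461, minus strand) encodes the ceramide synthase without which worms are sensitive to lack of oxygen. It was at 67.0, 59.7 and 54.9 scaled FPKM in the reference strain and 54.4, 59.5 and 49.7 in the ptr-8 strain. Libraries overlapped, and the difference did not pass (log2 fold change -0.15, interval -0.42 to 0.13, limma adjusted p = 0.501). hyl-1 exceeded hyl-2 in all 3 reference strain libraries, by ratios of 1.23, 1.45 and 1.58. Ratios in the ptr-8 strain were 1.04, 0.944 and 0.967, so the genes stood nearly level. The share of hyl-1 in the ceramide synthase FPKM was 57.6% ± 3.29 in the reference strain and 48.6% ± 1.71 in the ptr-8 strain.

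lagr-1 (WBGene00006505, chromosome I, 13724575 to 13731990, minus strand), the third ceramide synthase gene, had the lowest level of the 10 genes in every library. Its scaled FPKM was 2.79, 3.54 and 1.27 in the reference strain and 0.953, 3.24 and 2.39 in the ptr-8 strain. Libraries of both strains were interleaved. The deposited intervals reached 19.2% to 58.0% of its FPKM to each side, against at most 17.5% for any other synthesis gene. The 95% interval of its log2 fold change ran from -1.08 to 0.76, so changes within that wide range remained compatible with these libraries. It contributed 1.69% ± 0.746 of the ceramide synthase FPKM in the reference strain and 1.99% ± 0.998 in the ptr-8 strain.

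ttm-5 (WBGene00013197, chromosome I, 14688672 to 14691723, minus strand) encodes a sphingolipid desaturase and owes its name to its induction by a pore-forming bacterial toxin through p38 MAP kinase. It was at 28.8, 38.0 and 33.6 scaled FPKM in the reference strain and 18.5, 21.1 and 18.6 in the ptr-8 strain. Every ptr-8 strain library lay below every reference strain library. The mean fell from 33.5 ± 4.62 to 19.4 ± 1.47 (SD, n = 3 each, log2 fold change -0.75, SE 0.13, interval -1.06 to -0.44, limma adjusted p = 0.0466). This p lies just inside the threshold. It was 0.0591 with upper-quartile scaling, 0.369 on FPKM as deposited, 0.0644 with no filter on low values and 0.278 on implied fragments. Without reference strain replicate 1 it was 0.0337, and without any other 1 library 0.0888 to 0.177.

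Of the ceramide glucosyltransferase genes cgt-1 alone passed, and it had the largest fold change of the 10 genes. cgt-1 (WBGene00011517, chromosome V, 15886724 to 15888851, minus strand) was at 23.5, 18.9 and 26.1 scaled FPKM in the reference strain and 11.5, 8.63 and 6.42 in the ptr-8 strain. All ptr-8 strain libraries lay below the reference strain. The mean fell from 22.8 ± 3.65 to 8.86 ± 2.57 (SD, n = 3 each, log2 fold change -1.29, SE 0.22, interval -1.83 to -0.76, limma adjusted p = 0.0472). Only 1.62% of all genes tested had a lower log2 fold change. The call was lost without any 1 library (adjusted p 0.0607 without reference strain replicate 1 to 0.178 without reference strain replicate 3), on FPKM as deposited (0.0779), with no filter (0.0705), with a pseudocount of 0.1 (0.0519) and on implied fragments (0.124). Its log2 fold change stayed between -1.48 and -1.11 over those alternatives.

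cgt-3 (WBGene00019127, chromosome II, 5911324 to 5916911, plus strand) was the most abundant ceramide glucosyltransferase transcript, and worms that lack cgt-3 and cgt-1 together arrest as young larvae. It was at 82.7, 94.3 and 86.1 scaled FPKM in the reference strain and 73.0, 83.9 and 80.4 in the ptr-8 strain. Overlap came from reference strain replicate 1 and ptr-8 strain replicate 2, and the difference did not pass (log2 fold change -0.15, interval -0.38 to 0.085, limma adjusted p = 0.423). cgt-2 (WBGene00017625, chromosome X, 17695232 to 17701744, plus strand) was at 7.40, 8.61 and 8.72 in the reference strain and 8.51, 9.78 and 11.03 in the ptr-8 strain. It too overlapped, with a positive log2 fold change of 0.22 (interval -0.10 to 0.53, limma adjusted p = 0.386).

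The glucosyltransferase transcripts differed between strains in their makeup and, with the scaling used here, in their sum. On FPKM as deposited, the sum in ptr-8 strain replicate 2 was above that in every reference strain library. The summed level was 114, 122 and 121 scaled FPKM in the reference strain and 93.0, 102 and 97.9 in the ptr-8 strain. cgt-1 made up 20.7%, 15.5% and 21.6% of that sum in the reference strain and 12.4%, 8.43% and 6.56% in the ptr-8 strain. cgt-1 was above cgt-2 in every reference strain library, at 3.17, 2.19 and 2.99 times its level. Ratios in the ptr-8 strain were 1.36, 0.882 and 0.582, so that cgt-2 was above cgt-1 in replicates 2 and 3. The ratio of cgt-1 to cgt-3 went from 0.262 ± 0.0547 to 0.114 ± 0.0403. Genes of the same family can exchange reads where their sequences match. The sequences of cgt-1, cgt-2 and cgt-3 were not compared here, and how the authors assigned shared reads is not given in the sources used here.

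**Figure D2:**
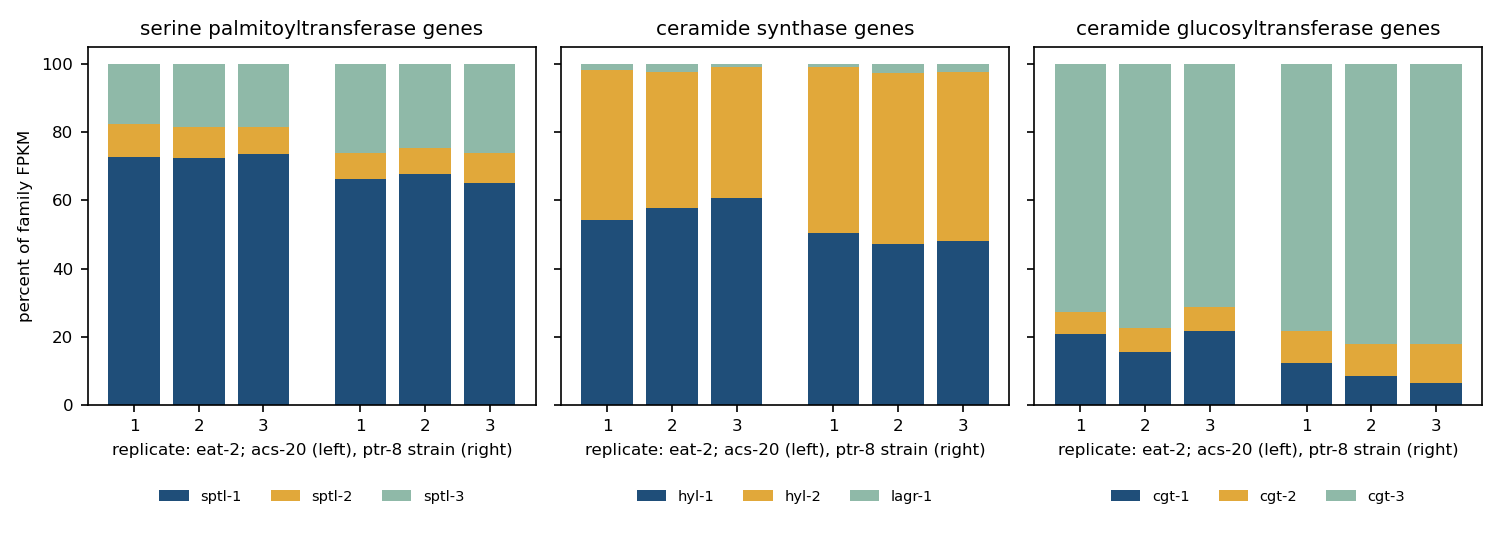
Percent of the summed FPKM of each enzyme family (vertical axes) that each gene made up, by replicate, with the reference strain on the left and the ptr-8 strain on the right of each panel. sptl-3 goes from 18.2% to 25.6% of its family on average, hyl-1 goes from 57.6% to 48.6% and cgt-1 from 19.3% to 9.13%.

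Ordered by level, sptl-1 was the highest of the 10 genes and lagr-1 the lowest in every library. cgt-3 and hyl-1 followed sptl-1 in the reference strain, at means of 87.7 ± 5.96 and 85.4 ± 2.47 scaled FPKM, which do not differ beyond their spread. hyl-2 came next at 60.5 ± 6.12, then sptl-3 at 45.6 ± 7.62 and ttm-5 at 33.5 ± 4.62. cgt-1 and sptl-2 were alike at 22.8 ± 3.65 and 22.6 ± 3.40, and cgt-2 was at 8.24 ± 0.732. In the ptr-8 strain cgt-3 stood alone in the second place at 79.1 ± 5.60, while hyl-2 (54.5 ± 4.92), hyl-1 (53.6 ± 4.79) and sptl-3 (45.8 ± 3.35) lay close together, and cgt-1 and cgt-2 were at 8.86 ± 2.57 and 9.77 ± 1.26.

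The summed scaled levels of the families were also lower in the ptr-8 strain without overlap. On FPKM as deposited the sums of every family overlapped. There ptr-8 strain replicate 2, divided by 1.33 here, lay above the lowest reference strain library in each family. The serine palmitoyltransferase genes summed to 251 ± 36.0 scaled FPKM in the reference strain and 179 ± 11.9 in the ptr-8 strain. For the ceramide synthase genes the sums were 148 ± 4.81 and 110.3 ± 9.51, and for the glucosyltransferase genes 118.8 ± 4.52 and 97.7 ± 4.66. As ptr-8 strain minus reference strain, the sums differed by -71.5, -38.2 and -21.0 scaled FPKM, and sptl-1, hyl-1 and cgt-1 alone differed by -63.7, -31.9 and -14.0. Since these sums are scores over listed genes, no test is attached to them.

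Genes that differed between strains did not all vary alike from library to library. Measured as the mean absolute difference of log2 levels, each centred on its own mean over the 6 libraries, the nearest of the 45 pairs of synthesis genes was sptl-1 with ttm-5, at 0.072. sptl-1 with sptl-2 followed at 0.092 and hyl-1 with ttm-5 at 0.099. cgt-1 and cgt-2 were the farthest apart, at 0.76. In the reference strain sptl-1, sptl-2, sptl-3, ttm-5, cgt-3 and lagr-1 were all highest in replicate 2, the replicate in which cgt-1 was lowest. Among 5882 tested genes with a lettered name and a mean of at least 10 scaled FPKM, the gene nearest to cgt-1 by this measure was asm-2, an acid sphingomyelinase gene (0.14), and then fut-2, a fucosyltransferase gene (0.16). The acyl-CoA dehydrogenase gene acdh-10 was nearest to both sptl-1 (0.036) and ttm-5 (0.042). The next was math-40 for sptl-1 (0.045) and jun-1 for ttm-5 (0.045). btb-16 (0.055) and dpsm-1 (0.060) were nearest to hyl-1, nipi-3 (0.024) and rop-1 (0.038) to hyl-2, and rab-33 (0.018) and unc-18 (0.022) to cgt-3. The strain difference itself enters this measure, which rests on 6 libraries.

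Around the synthesis steps, 2 glucosylceramide breakdown genes fell and no other gene of the sphingolipid list passed. The list held 29 genes of sphingomyelin, ceramide and glucosylceramide turnover, base phosphorylation, glycolipid extension and branched-chain elongation, of which 28 were found and tested. Of these, 2 were called lower and 0 higher in limma, with 7 lower and 1 higher at an unadjusted p below 0.05. Over all genes tested, the shares were 1.94% and 0.349% for calls and 11.8% and 8.9% at the unadjusted threshold. Under voom on implied fragments 0 were called in either direction. The median log2 fold change of the 28 was -0.011, close to the 0.0061 of all genes tested.

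gba-1 and gba-4 encode glucosylceramidases, lysosomal enzymes that remove the glucose that the cgt enzymes add. gba-1 was at 61.2, 60.3 and 67.2 scaled FPKM in the reference strain and 27.4, 25.7 and 25.8 in the ptr-8 strain. Both groups were tight and far apart, and the mean fell from 62.9 ± 3.74 to 26.3 ± 0.937 (SD, n = 3 each, log2 fold change -1.23, SE 0.085, limma adjusted p = 0.00430). It passed without each library in turn (adjusted p 0.0162 to 0.0384) and missed the threshold on implied fragments (0.0930). gba-2 lies beside gba-1 on chromosome II and belongs to the same family, so reads may have been divided wrongly between both genes. gba-2 ranged from 7.70 to 34.9 scaled FPKM in the reference strain and from 10.2 to 28.0 in the ptr-8 strain.

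gba-4 was at 84.2, 49.4 and 92.4 in the reference strain and 20.1, 15.6 and 19.04 in the ptr-8 strain. All ptr-8 strain libraries were well below the reference strain (log2 fold change -1.95, SE 0.25, limma adjusted p = 0.0217). Without reference strain replicate 3 or any 1 ptr-8 strain library it did not pass (adjusted p 0.0636 to 0.0940). gba-3 (9.54 ± 0.172 and 10.4 ± 0.585) was higher in all ptr-8 strain libraries than in any reference strain library, and did not pass (log2 fold change 0.12, limma adjusted p = 0.512). The saposin gene spp-10 (380 ± 19.6 and 352 ± 19.4), whose product helps such enzymes in the lysosome, overlapped and did not pass.

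None of the 6 ceramide and sphingomyelin breakdown genes passed, and their values had both signs. The acid sphingomyelinase gene asm-2 was at 21.0, 16.3 and 24.3 scaled FPKM in the reference strain and 11.3, 6.26 and 7.42 in the ptr-8 strain (log2 fold change -1.23, limma adjusted p = 0.0638). Its libraries did not overlap, and like cgt-1 and gba-4 it was lowest in replicate 2 of the reference strain. The acid ceramidase genes asah-1 (76.1 ± 12.2 and 48.2 ± 8.42) and asah-2 (56.5 ± 11.2 and 36.0 ± 2.61) had log2 fold changes of -0.65 and -0.62 (limma adjusted p = 0.123 and 0.120). The alkaline ceramidase gene acer-1 was at 232 ± 29.6 and 263 ± 36.5 scaled FPKM, with overlap and a positive log2 fold change of 0.18 (limma adjusted p = 0.513). The sphingomyelinase gene asm-3, which was low at 1.12 ± 0.501 and 1.66 ± 0.768, also overlapped and had a positive value (0.32, limma adjusted p = 0.548). Of the 5 genes of base phosphorylation and phosphate breakdown, spl-2, of the sphingosine phosphate lyase family, had the lowest value (7.69 ± 0.634 and 4.05 ± 0.779, log2 fold change -0.79, limma adjusted p = 0.0577).

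Of the sphingomyelin synthase genes, sms-5 was at 4.83, 2.42 and 2.55 scaled FPKM in the reference strain and 4.91, 6.14 and 5.51 in the ptr-8 strain. These groups did not overlap, although reference strain replicate 1 came close to ptr-8 strain replicate 1 (log2 fold change 0.65, limma adjusted p = 0.204, and 0.0428 without reference strain replicate 1). fath-1, the fatty acid 2-hydroxylase gene, was at 99.2 ± 8.56 and 82.7 ± 5.99 (log2 fold change -0.26, limma adjusted p = 0.230). The 5 bre genes, of which most build the sugar chain on glucosylceramide, lay between -0.22 and 0.11 on the log2 scale, and each overlapped between strains. The elongase genes elo-5 (308 ± 94.1 and 326 ± 54.9) and elo-6 (664 ± 183 and 569 ± 110.6), which supply branched-chain acyl groups, also overlapped.

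**Figure D3:**
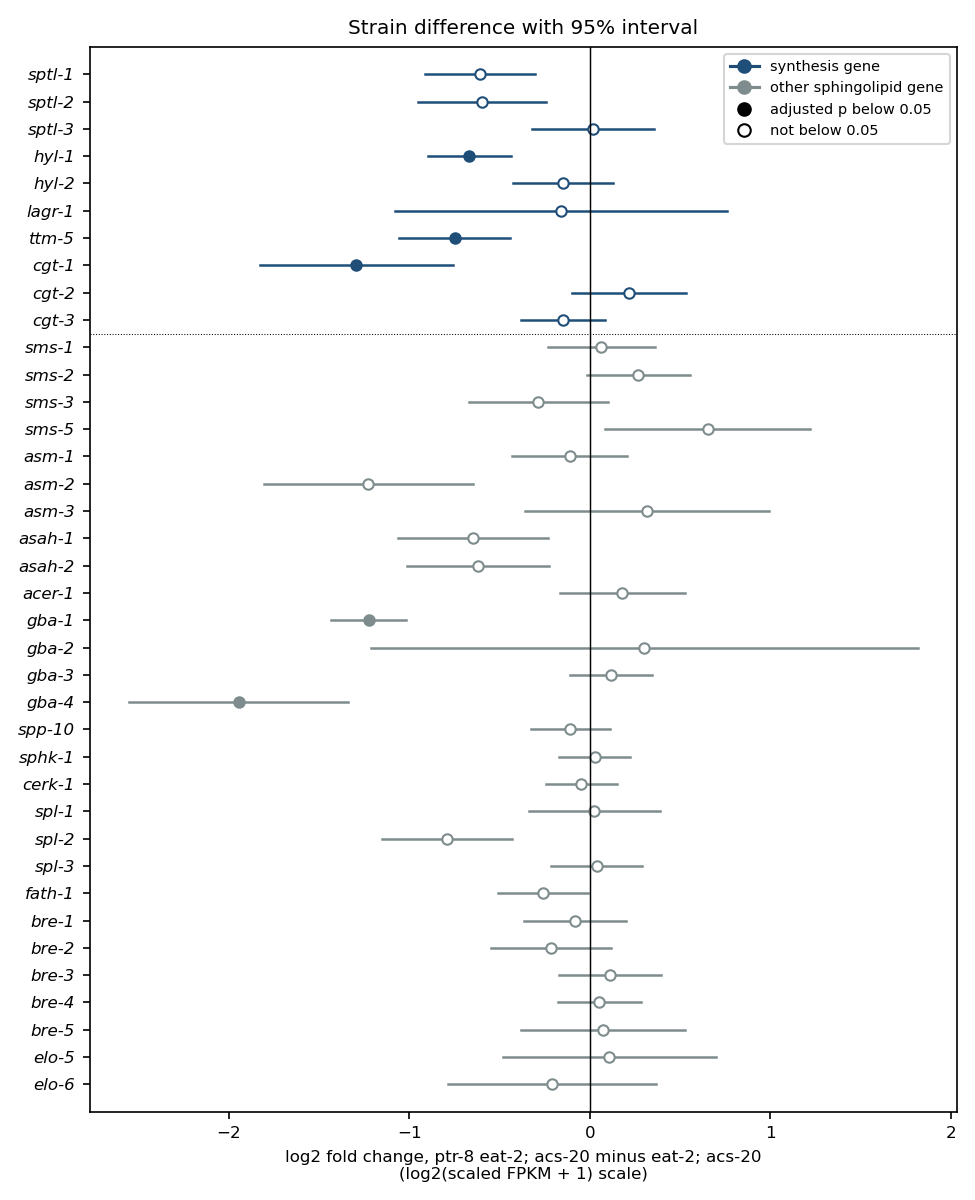
Log2 fold change between strains on the log2(scaled FPKM + 1) scale (horizontal axis, ptr-8 strain minus reference strain) with its 95% interval from limma, for the 10 synthesis genes (blue) and 28 other sphingolipid genes (grey), filled where the adjusted p was below 0.05. Filled points are hyl-1, ttm-5, cgt-1, gba-1 and gba-4, all to the left of 0.

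Set against all genes, the called synthesis genes lay in the lower tail of the strain difference without being at its end. The share of tested genes with a lower log2 fold change was 6.56% for hyl-1, 5.29% for ttm-5 and 1.62% for cgt-1, and 7.87% and 8.17% for sptl-1 and sptl-2. It was 31.7% for hyl-2, 31.7% for cgt-3, 51.3% for sptl-3 and 78.5% for cgt-2. By level the 10 genes ran from 9.65% of tested genes below lagr-1 to 90.6% below sptl-1.

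**Figure D4:**
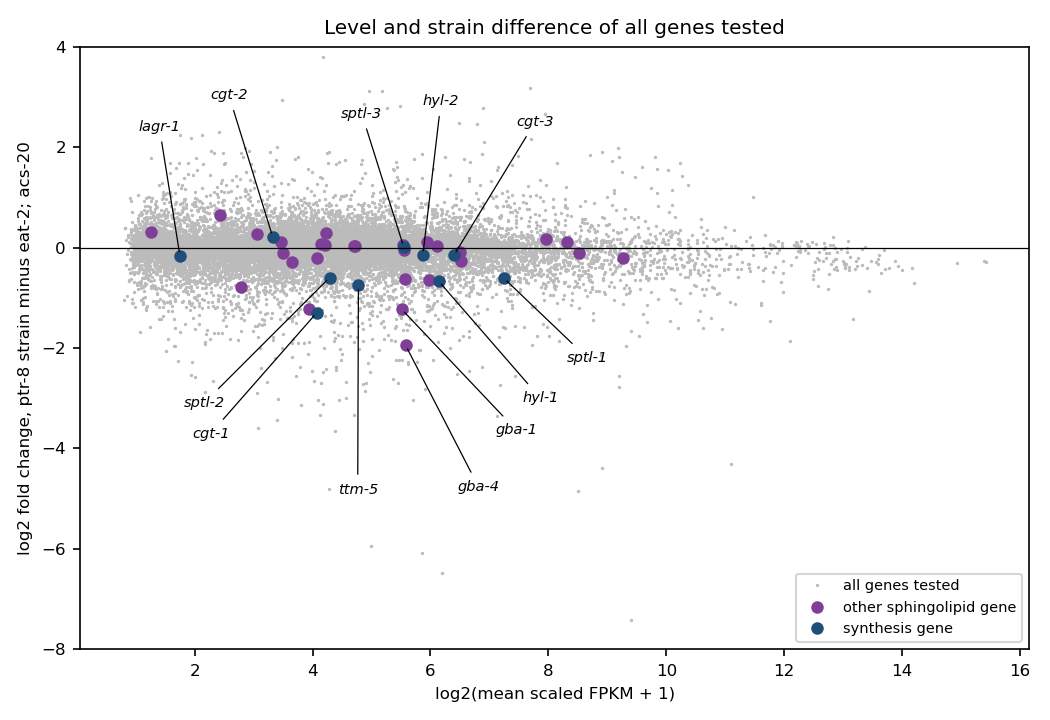
Log2 fold change (vertical axis, ptr-8 strain minus reference strain) against log2(mean scaled FPKM + 1) (horizontal axis) for the 15205 genes tested (grey), the 28 other sphingolipid genes (purple) and the 10 synthesis genes (blue). The synthesis genes lie between -1.29 and 0.22.

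**Figure D5:**
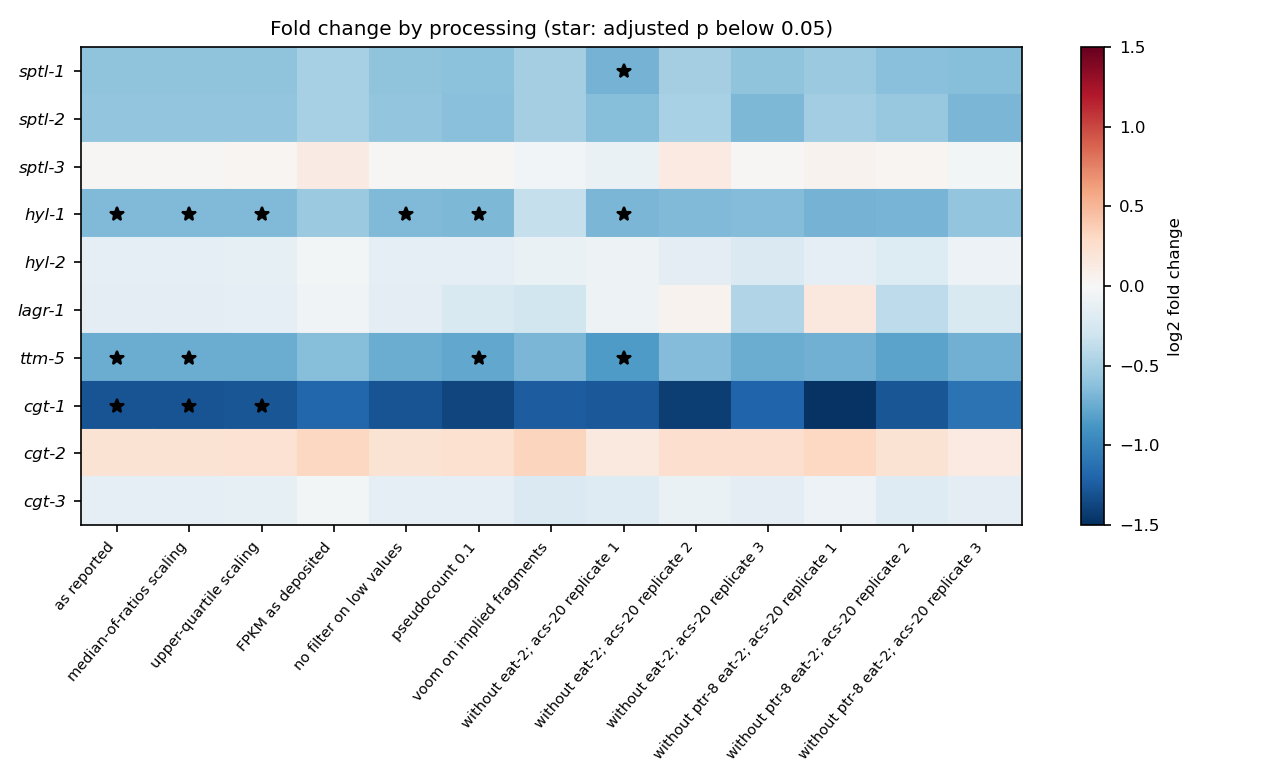
Log2 fold change of each synthesis gene (rows, colour scale) under the reported processing and 12 of the 13 alternatives (columns), with a star where the adjusted p was below 0.05. sptl-1, sptl-2, hyl-1, ttm-5 and cgt-1 are negative in every column, while stars are present for hyl-1 in 6 columns, ttm-5 in 4, cgt-1 in 3 and sptl-1 in 1.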

How the data were processed

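RNA sequencing tables of 6 libraries, 3 per strain, were analysed. The authors deposited FPKM values with a lower and an upper bound for 46245 genes per library, per the file headers. The layout is that of Cufflinks. Tools listed in the submitters' processing notes are DESeq2, HTSeq, TopHat2 and FastQC 0.11.5, with no roles and no genome build. Of 46245 identifiers, 45990 matched the Ensembl annotation of WBcel235, all on the same chromosome, with 97.7% within 1000 bp. Coordinates are the files' own, starts raised by 1. Whether libraries keep strand is not given in the sources used here.

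FPKM values were divided by a trimmed mean of log ratios per library (cutting 30% of ratios and 5% of levels from either end). Loci under 200 bp (22932), 10 genes marked FAIL and genes below a scaled FPKM of 1 in more than 3 libraries were left out. limma 3.58.1 (R 4.3.3, intensity trend) was fitted to log2(scaled FPKM + 1) with strain as the term. This scale understates fold changes of low genes. In data simulated for this comparison (14972 genes), calls were made for 35.8% of genes changed by 0.7 on the log2 scale. They were made for 50.0% of those changed by 1 and 84.1% of those changed by 2, and 6.56% of calls were false. Changed genes were drawn only from those with a reference strain mean above 2 on the log2(scaled FPKM + 1) scale. The rates thus do not cover low genes such as lagr-1. The simulated noise was normal and independent between genes, so these rates do not cover shifts shared by many genes of 1 library. The implied fragment number is the square of FPKM over its standard error, with the upper interval width read as 2 such errors. It need not rise in proportion to FPKM. Members and lists were chosen with earlier results of these data known. Named genes are the 10 synthesis genes, other sphingolipid genes that were called or had the 6 lowest p-values besides, ptr-8, and the 2 nearest genes to 6 of the synthesis genes. Other genes named (tre-5, gba-2, gba-3, spp-10, acer-1, asm-3, elo-5, elo-6) were chosen after their values were seen. Alternatives were other scalings, voom, a replicate block, a pseudocount of 0.1, no filter and each library left out. Promoter sequences were not analysed here, and 1 listed gene, cert-1, was not matched by name.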

Additional observations from a re-analysis of the deposited data

How the results depend on the processing

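Of the 10 synthesis genes, 3 were called lower in limma, 3 with median-of-ratios and 2 with upper-quartile scaling or a pseudocount of 0.1, but 1 with no filter, 0 on FPKM as deposited (2 at an unadjusted p below 0.05), 0 with the replicate block (5 unadjusted, with adjusted p of 0.0807 for hyl-1, 0.0624 for ttm-5 and 0.0975 for cgt-1) and 0 with voom on implied fragments (4 unadjusted). Without 1 library the number was 0 to 3, and it was 3 only without reference strain replicate 1. At an unadjusted p below 0.05, 5 were lower in each fit that left out 1 library. No synthesis gene was called higher in limma or voom under any alternative, adjusted or at an unadjusted p below 0.05. Other sphingolipid genes called lower numbered 2, but 0 with voom and 1 to 2 without 1 library. Those called higher numbered 0 to 1 without 1 library. Over all genes, 295 were lower and 53 higher (15.2% of calls). FPKM as deposited gave 178 lower and 66 higher (27.0%) and moved the median of all genes to 0.10. The replicate block gave 136 and 24, and voom 58 and 15. Without 1 library the lower calls ran from 44 to 396 and the higher calls from 14 to 276. The sign turned for sptl-3 with voom (-0.050) and on leaving out reference strain replicate 1 (-0.103) or ptr-8 strain replicate 3 (-0.041), in a range of -0.103 to 0.133 without 1 library. For lagr-1 it turned on leaving out reference strain replicate 2 (0.050) or ptr-8 strain replicate 1 (0.160), in a range of -0.452 to 0.160. Neither gene was called in any of these. The cause of the lost calls was not tested. The share differences of sptl-1, hyl-1 and cgt-1 within their families kept their sign with each library left out (-7.15 to -5.91, -10.7 to -7.44 and -12.0 to -8.83 percentage points). Same-numbered libraries of the strains had deviations that correlated at 0.249, 0.0471 and 0.0346 across genes, and only replicate 1 matched its own number best, so the numbers were not taken as pairs. Of the 10 genes, lagr-1 had the fewest implied fragments, 11.9 to 108 per library.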
